A study of Rattus norvegicus with 18 samples.

Results

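Medullary thyroid carcinoma specimens of MENX rats differed widely in Gcm2, the transcription factor that marks parathyroid cells, and the arrays were ranked by it. All 18 arrays of the series were members. The 9 arrays with the highest log2 value of Gcm2 made the Gcm2-high side, called here parathyroid-rich, and the 9 with the lowest made the Gcm2-low side, called parathyroid-poor. The sides were thus chosen by a measured value, and Gcm2 itself was left out of every test. A difference between the sides says that a gene went with Gcm2 over these arrays. The sides were not assigned by the design of the study, which compared genotypes and ages.

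The parathyroid glands lie beside or within the thyroid and release parathyroid hormone, the product of Pth, when blood calcium falls. Gcm2 and Gata3 are transcription factors needed for the glands to form from the pharyngeal pouches and for Pth to be made. The calcium-sensing receptor Casr lets the cells measure calcium, and Kl (klotho) is the co-receptor through which the bone hormone FGF23 acts on them. The vitamin D receptor Vdr lowers Pth transcription. Calcitonin-producing C cells, the origin of medullary carcinoma, also carry Casr and store their hormone with chromogranins.

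All animals were MENX rats, mutant for Cdkn1b, which encodes the cell cycle inhibitor p27Kip1, on a Sprague–Dawley white eye/Wistar–Kyoto background, and none was treated. The 3 label groups held 6 arrays each. Homozygous animals had been taken at 9 months, and heterozygous ones either at 9 or at 18 months, and each array had its own animal code. Neither normal thyroid nor wild-type animals were among the samples, and the labels give no sex, litter or array date. How much tissue around a tumour was taken is not stated in the labels used. Values are RMA signals on the log2 scale, so a difference of 1 is a doubling. Array medians lay between 7.55 and 7.65, and the highest value of any array lay between 14.43 and 14.49, which compresses differences of very bright genes. Calca, the calcitonin gene, was at 13.75 to 14.12 on the 18 arrays. An array has no depth, so precision rests on the number of arrays. In bulk tissue, fewer cells of a type and less RNA per cell cannot be told apart.

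Gcm2 (probe set 10794617) spanned 5.85 to 11.34. In rising order the low side held 18-month replicate 6 (5.85), homozygous replicate 2 (5.89), 18-month replicates 2 (6.12) and 3 (6.14), heterozygous 9-month replicate 1 (6.29), 18-month replicates 5 (7.05) and 1 (7.17), and homozygous replicates 4 (8.50) and 3 (9.18). The high side held homozygous replicate 6 (9.71), heterozygous 9-month replicate 2 (9.88), homozygous replicate 1 (10.02), heterozygous 9-month replicates 3 (10.45), 5 (10.50) and 6 (10.60), 18-month replicate 4 (11.17), heterozygous 9-month replicate 4 (11.25) and homozygous replicate 5 (11.34). The border therefore ran between 9.18 and 9.71, a step of 0.53, whereas the widest step between neighbours was 1.33, from 7.17 to 8.50. Homozygous replicates 3 and 4 lay between the lower arrays and the high side. The sides were uneven across the label groups. The homozygous tumours were split 3 and 3, the heterozygous 9-month tumours 5 high and 1 low, and the 18-month tumours 1 high and 5 low. For this reason the 3 label groups stood in the model as covariates.

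Pth (probe set 10724987), the hormone gene and the marker that the ranking did not use, was bright on every Gcm2-high array. Its values there ran from 13.98 to 14.26 with a median of 14.17, close to the top of the scale. On the low side Pth was at 11.10, 8.33, 6.02, 6.54, 10.67, 12.68, 13.18, 13.45 and 13.88, in the order of rising Gcm2. The sides did not overlap, and ranking the arrays by Pth gave the same 9 and 9. Of the 9 low-side arrays 6 still lay above 10, so poor describes a lower level of Pth and not its absence. The difference within label groups was 3.12 (SE 1.14, 95% interval 0.70 to 5.54), which the model did not call, with a limma adjusted p of 0.157. An exact two-sided permutation test of the same difference, with the sides permuted within label groups, gave p = 0.00139, the smallest that its 720 assignments allow. Complete separation within each label group fixes that value, so it restates the separation and supports nothing beyond it. The link between Pth and Gcm2 was already known from these arrays. Casr, the other textbook marker, did not separate the sides. It ranged from 12.82 to 13.23 with a median of 12.95 on the high side and from 12.65 to 13.64 with a median of 13.46 on the low side, a difference of -0.15 (SE 0.10, limma adjusted p = 0.386).

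**Figure D1:**
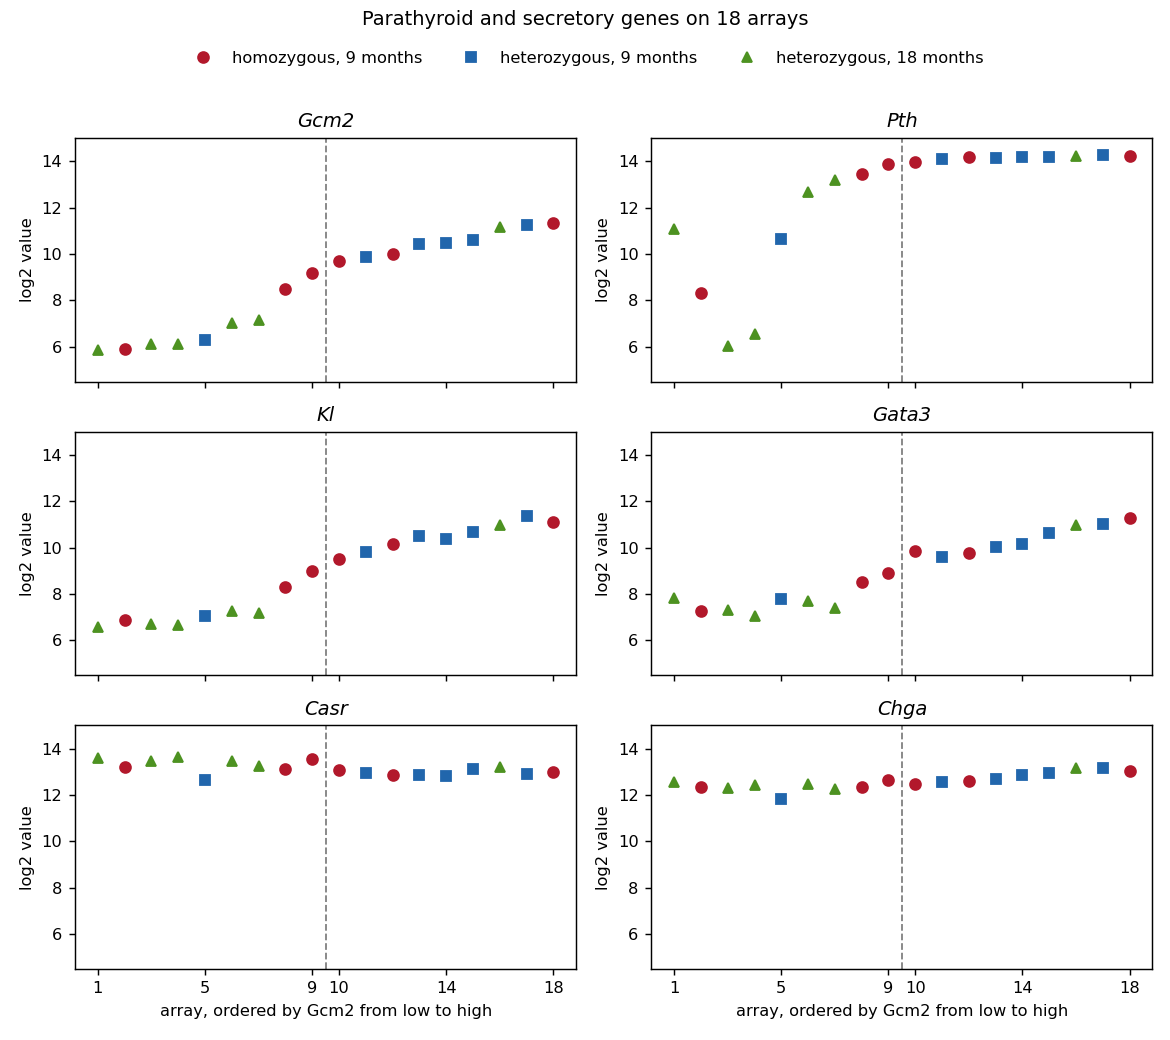
Log2 values of Gcm2, Pth, Kl, Gata3, Casr and Chga (vertical axes) on the 18 arrays in rising order of Gcm2 (horizontal axes), with 1 point per array, colour and shape for the label group, and a dashed line at the border of the sides. Pth flattens near 14 above the border, and Casr stays between 12.65 and 13.64. Kl and Gata3 are higher above the border than below it. On the low side Gata3 shows no steady rise before homozygous replicates 4 (8.515) and 3 (8.908).

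Of 11369 genes tested with limma, 53 were higher on the Gcm2-high side (0.466%) and 13 were lower (0.114%) at an adjusted p under 0.05. Of the higher genes, 28 differed by at least 1 on the log2 scale (0.246% of genes tested), and of the lower genes 0 did, the largest fall being -0.68. At an unadjusted p under 0.05 there were 2451 genes (21.6%). The median difference of all genes was -0.02, and 46.4% of genes lay above 0. All 9 high arrays exceeded all 9 low arrays in 62 genes (0.545%), 43 of them among the 53 called. The reverse held in 26 genes (0.229%), 3 of them among the 13 called. Within each of the 3 label groups taken alone, high arrays exceeded low arrays in 117 genes (1.03%), of which 48 were called higher. They lay below in 127 genes (1.12%), of which 8 were called lower.

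These counts depended on few arrays. Without 18-month replicate 4, the lone high array of its group, 5 genes were called higher and 0 lower. Without heterozygous 9-month replicate 1, the lone low array of its group, 130 were higher and 264 lower, and without homozygous replicate 5 the counts were 34 and 1. The lower count moved by more than 1.5 times in every single omission except those of homozygous replicates 4 and 6, heterozygous 9-month replicate 2 and 18-month replicate 5. With the 9-month arrays only, and without both lone arrays, 0 genes were called in either direction. Without both lone arrays the split rested on the homozygous tumours alone. A further quantile normalization gave 46 higher and 4 lower. All 53 higher and 13 lower genes kept their sign under each of these settings. They had been picked by their difference on these same arrays, so a kept sign was largely given. Egf, Gata3, Kl, Sostdc1 and Tnmd were called in all 18 single omissions, and no gene called lower was. Of these, Tnmd passed the expression filter only through its high-side values.

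The genes of parathyroid identity that rose were Kl and Gata3, with Pax1 beside them among the pharyngeal pouch factors. Kl (probe set 10759762) ran from 9.53 to 11.36 with a median of 10.52 on the high side and from 6.57 to 9.01 with a median of 7.06 on the low side. The sides did not overlap, and the difference was 3.04 (SE 0.38, limma adjusted p = 0.00211). Homozygous replicates 4 and 3, the low-side arrays nearest the border, were also the highest low-side arrays for Kl, at 8.30 and 9.01. Gata3 (probe set 10796220) ran from 9.60 to 11.26 (median 10.14) against 7.05 to 8.91 (median 7.69), again without overlap, a difference of 2.58 (SE 0.33, limma adjusted p = 0.00211). Pax1, a paired-box factor of the pharyngeal pouches, lay at 7.75 to 9.28 (median 8.45) against 6.89 to 7.61 (median 7.29). It differed by 1.37 (SE 0.23, limma adjusted p = 0.00776). Its highest values were on heterozygous 9-month replicate 4, homozygous replicate 5 and 18-month replicate 4, the 3 arrays with the highest Gcm2. The rise held in each label group. For Kl it was 2.21 in the homozygous, 3.48 in the heterozygous 9-month and 4.11 in the 18-month tumours, the latter 2 values each resting on a lone array on 1 side.

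The largest differences were those of Adgrg2 and Rhcg. Adgrg2, an adhesion G protein-coupled receptor, rose by 3.95 (SE 0.64, limma adjusted p = 0.00776), with high-side values of 9.96 to 11.76 and low-side values of 5.20 to 9.75. Rhcg, an ammonia transporter of epithelial membranes, rose by 3.74 (SE 0.54, limma adjusted p = 0.00454), from 6.10 to 10.19 on the low side to 10.80 to 12.25 on the high side. Neither gene overlapped between the sides, and in both the low-side array nearest the high side was homozygous replicate 3. Sostdc1, a secreted antagonist of BMP and Wnt signals, lay at 9.82 to 11.57 (median 10.78) against 6.22 to 9.26 (median 6.92), a difference of 3.19 (SE 0.41, limma adjusted p = 0.00211). Tnmd, tenomodulin, a membrane glycoprotein best known from tendon, lay at 7.82 to 10.38 against 5.16 to 7.46, a difference of 3.06 (SE 0.39, limma adjusted p = 0.00211). Its low-side mean of 5.95 lay under the expression filter of 6.32, so Tnmd was tested only because of its high-side values. Tnfrsf11b, the soluble decoy receptor osteoprotegerin that restrains bone resorption, rose by 2.51 (SE 0.41) and Egf, the epidermal growth factor precursor, by 1.92 (SE 0.26). All of these showed higher values on every high array than on any low array.

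Tpx2, a spindle assembly factor that activates Aurora A kinase, was at 9.63 to 11.67 on the high side and at 6.01 to 9.42 on the low side, a rise of 3.18 (SE 0.50, limma adjusted p = 0.00629). No listed cell cycle gene was called with it. Of 18 other cell cycle genes tested, 0 were called, 2 lay above 0, and their median difference was -0.16 beside -0.02 for all genes. Over all genes tested 46.4% lay above 0, and 0.466% were called higher and 0.114% lower. At those shares 0 calls among 18 genes says little. Aurka, the kinase that Tpx2 binds, differed by 0.01 (SE 0.09). Pcyt1b, an enzyme of phosphatidylcholine synthesis, rose by 2.75 (SE 0.45), Rapgef5, an exchange factor for small GTPases, by 2.07 (SE 0.29), and Rasal1, a GTPase-activating protein for Ras, by 1.86 (SE 0.27). Anpep, aminopeptidase N of the cell surface, rose by 1.65 (SE 0.24). Cryba2, a beta-crystallin, reached 12.34 to 13.55 on the high side against 8.63 to 12.07 on the low side, a rise of 3.16 (SE 0.46, limma adjusted p = 0.00454). Heterozygous 9-month replicate 1 was its lowest array and homozygous replicate 2 the next. Smaller rises were measured for Lmo7 (1.23), an adaptor of cell junctions, Cd34 (1.303), a surface sialomucin of endothelium and blood progenitors, Slc9a4 (1.31), a sodium-proton exchanger, and Gldc (1.84), the glycine decarboxylase. Slc9a4 and Gldc had low-side means of 5.83 and 6.31, under the expression filter of 6.32, and passed it through the high side. Lama1, Cited2, Dmrt2, Dmrt3 and Gja3 were called at differences between 0.38 and 0.69.

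**Figure D2:**
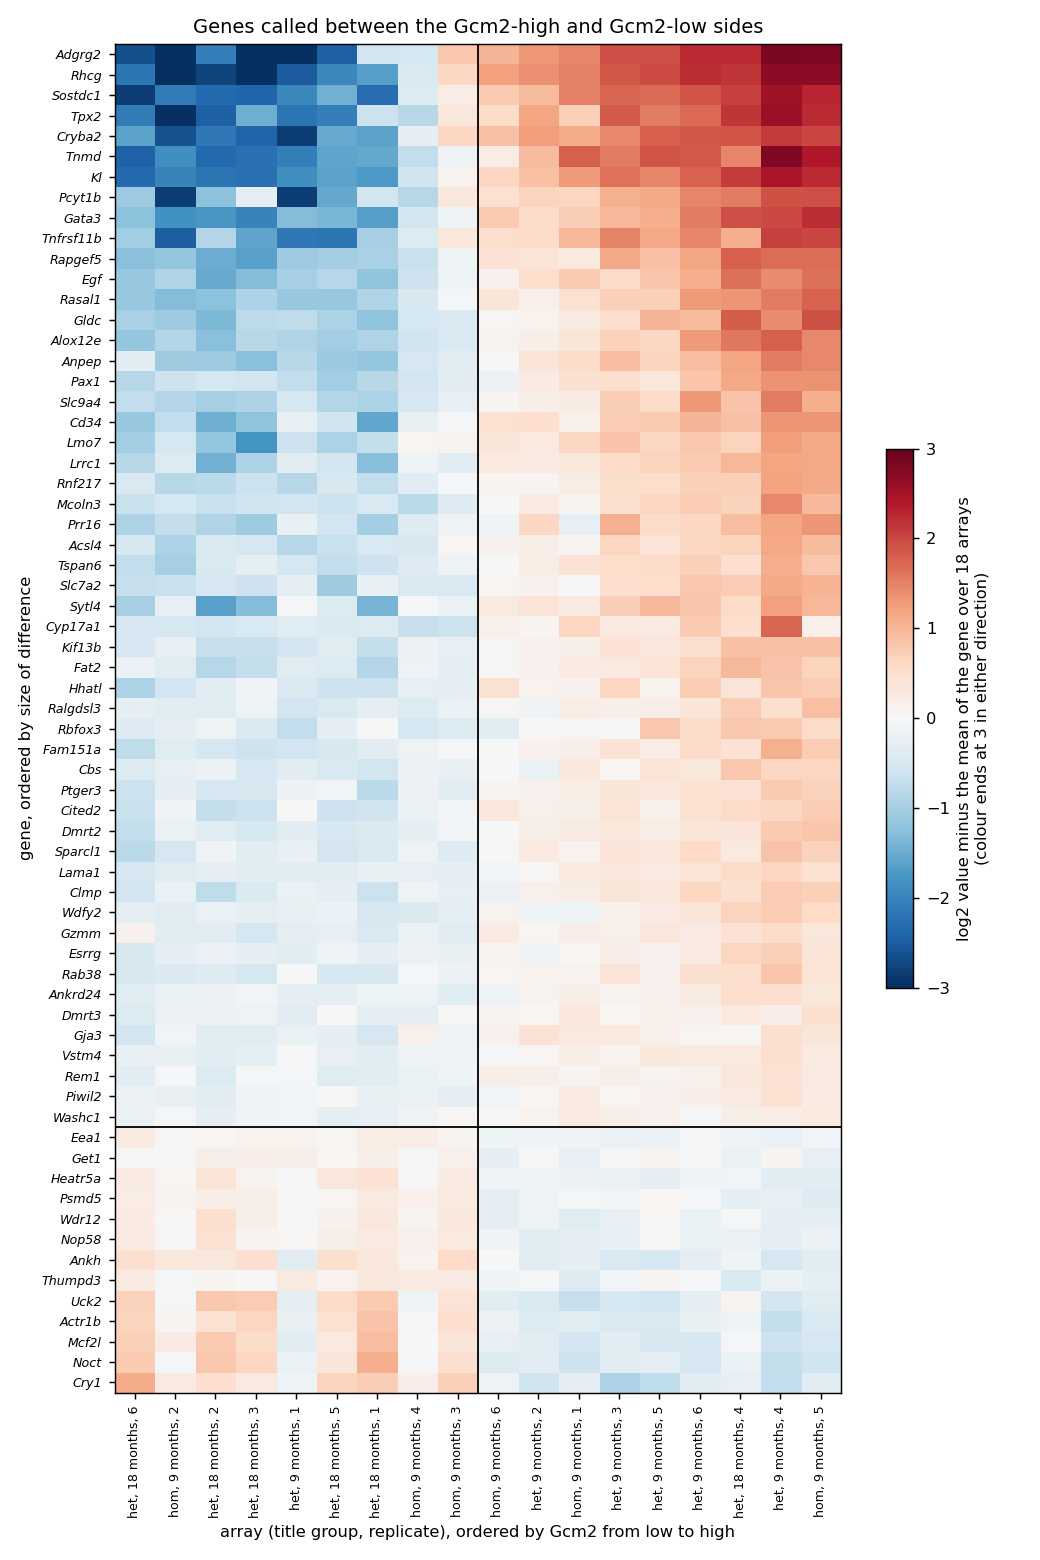
Log2 value minus the gene's mean over the 18 arrays (colour, ending at 3 in either direction) for the 53 genes called higher and the 13 called lower (vertical axis, by size of difference), on arrays in rising order of Gcm2 (horizontal axis). The upper genes are higher on the high side than on the low side. Not all of them rise steadily across the low side, Rbfox3 and Sparcl1 being examples. The lower genes show paler, less regular differences.

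The upstream sequence of genes that rose together was read for a site of the family of Gcm2 and a site of the GATA family. Promoters of 250 bases before a single start per gene came from RefSeq (build GRCr8), and 40 of the 53 genes called higher had an entry. Gcm2 was not among the entries. The GCM letters ATGCGGG, sought on both strands, were in 3 of these 40 (7.5%), in 1.67% of the 9401 promoters of tested genes and in 1.13% of all 27457 promoters. The genes with a match were Cryba2, Lmo7 and Gja3. The GATA letters AGATAA, on both strands, were in 1 of the 40 (2.5%), that of Sytl4, in 5.87% of tested genes and in 10% of all promoters. The letters of the 2 motifs do not overlap. Both motifs were picked with the results known, and a match is a description of letters and not of binding. The sequences of Pth, the hormone gene of the gland, and of the larger 2 rises with a GCM match are given 5′ to 3′ on the gene's strand, with matches in capitals: the GATA letters on the opposite strand in Pth, at position -142 from the start, and the GCM letters at -162 in Cryba2 and -226 in Lmo7. The windows are chr1:176946035-176946284 (minus strand) for Pth, chr9:83899132-83899381 (minus strand) for Cryba2 and chr15:84981532-84981781 (plus strand) for Lmo7. The Cryba2 window lies inside the annotated span of the gene (83895921 to 83906651). The annotated span of Lmo7 begins inside its window, at 84981689. Both matches thus depend on the start that was used.
Pth: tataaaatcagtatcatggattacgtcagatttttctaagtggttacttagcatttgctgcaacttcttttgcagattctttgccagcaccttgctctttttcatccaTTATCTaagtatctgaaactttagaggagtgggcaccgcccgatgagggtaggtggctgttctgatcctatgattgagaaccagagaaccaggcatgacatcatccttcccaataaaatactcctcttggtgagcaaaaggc
Cryba2: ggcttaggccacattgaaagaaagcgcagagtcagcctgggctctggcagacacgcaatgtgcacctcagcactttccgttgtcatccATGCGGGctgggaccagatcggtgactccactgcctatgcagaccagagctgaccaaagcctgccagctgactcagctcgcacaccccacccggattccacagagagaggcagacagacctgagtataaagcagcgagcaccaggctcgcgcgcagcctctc
Lmo7: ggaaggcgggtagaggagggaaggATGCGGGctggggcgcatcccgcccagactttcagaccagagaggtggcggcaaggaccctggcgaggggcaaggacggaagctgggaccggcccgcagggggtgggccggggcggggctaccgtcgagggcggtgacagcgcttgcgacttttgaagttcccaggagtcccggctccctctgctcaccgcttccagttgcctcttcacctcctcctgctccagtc

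The 13 genes that fell did so by little. Cry1, a repressor of the circadian clock, fell most and was at 6.98 to 7.75 (median 7.55) on the high side against 7.74 to 8.99 (median 8.40) on the low side. It differed by -0.68 (SE 0.13, limma adjusted p = 0.0204), and the sides overlapped by heterozygous 9-month replicate 1, the low-side array at 7.74. Noct, nocturnin, a phosphatase under clock control, differed by -0.63 (SE 0.13, limma adjusted p = 0.0440) without overlap, at 7.12 to 7.63 against 7.64 to 8.93. Mcf2l differed by -0.52 (SE 0.11), Actr1b, a subunit of dynactin, by -0.50 (SE 0.11), and Uck2, a uridine-cytidine kinase, by -0.48 (SE 0.10). Thumpd3, an RNA methyltransferase component, differed by -0.44 (SE 0.08), and it had the smallest adjusted p of the falls at 0.00932. Ankh, a membrane protein of pyrophosphate export, differed by -0.42 (SE 0.09). Nop58 and Wdr12, both of ribosome assembly, differed by -0.34 each, as did Psmd5, a chaperone of the proteasome. In 8 of the 13 the lone low array of the heterozygous 9-month tumours lay above all 5 high arrays of that group, which 24.8% of all tested genes showed.

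A fit with the Gcm2 value itself in place of the sides, again with the label groups as covariates, called 72 genes that rose with Gcm2 (0.633%) and 2 that fell (0.0176%). It shared 48 of the 53 higher genes with the split and 0 of the 13 lower ones. The 2 that fell, Arid3a and Kcnh5, were not called by the split, and both were named after their values were seen. Per unit of log2 Gcm2, Adgrg2 rose by 1.13 (SE 0.07), Rhcg by 1.05 (SE 0.05), Tpx2 by 0.90 (SE 0.05), Sostdc1 by 0.87 (SE 0.04), Kl by 0.83 (SE 0.03) and Gata3 by 0.68 (SE 0.05). Fitted for each label group, the slope of Kl was 0.79 in the homozygous, 0.84 in the heterozygous 9-month and 0.85 in the 18-month tumours. In the heterozygous groups these slopes rest largely on the lone arrays, and a step was not compared with a gradient. Cry1 had a slope of -0.14 (SE 0.04, limma adjusted p = 0.172). The gradient fit called 42 genes higher on the 9-month arrays alone, 34 of them among the 53, and 43 genes higher without 18-month replicate 4, again 34 among the 53.

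**Figure D3:**
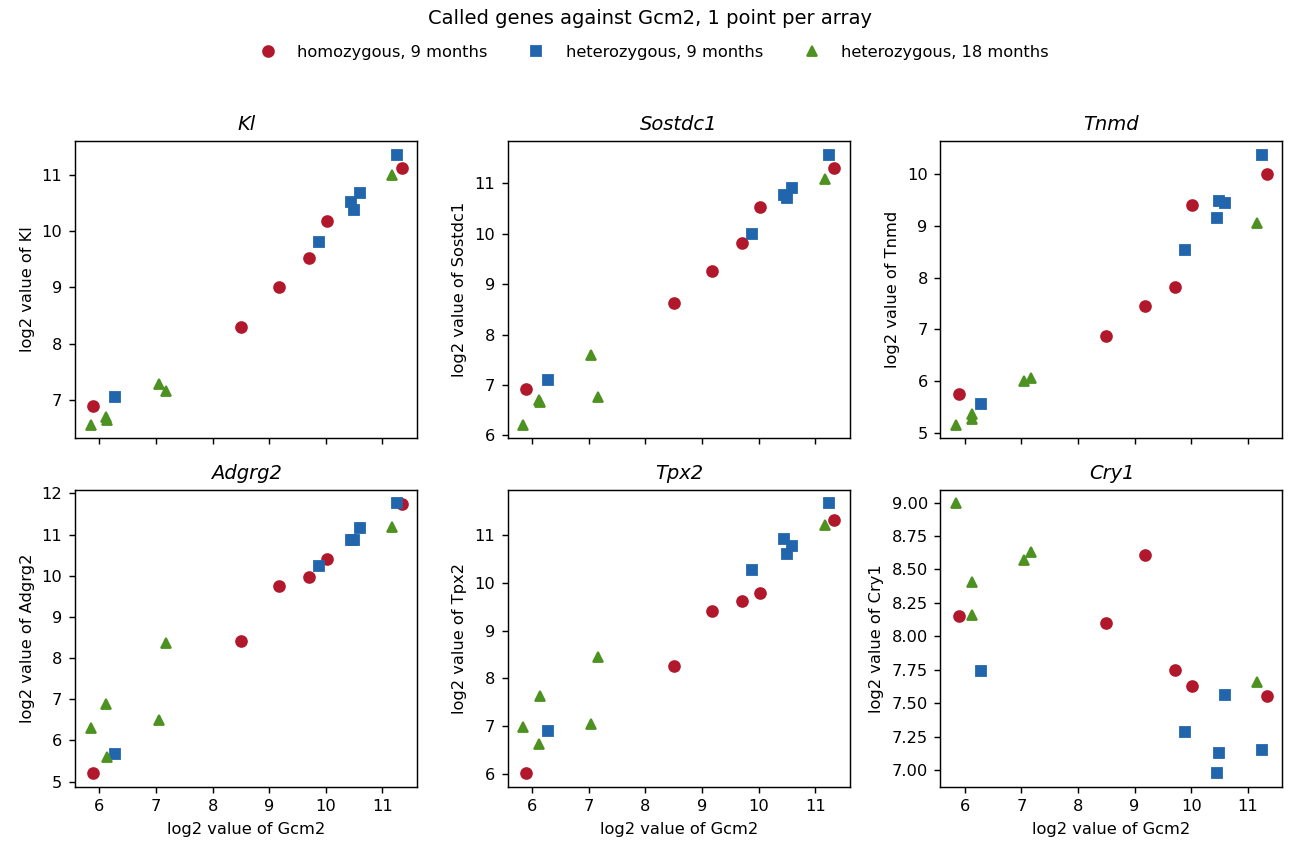
Log2 values of Kl, Sostdc1, Tnmd, Adgrg2, Tpx2 and Cry1 (vertical axes) against the log2 value of Gcm2 (horizontal axes), 1 point per array with colour and shape for the label group. The 5 genes called higher climb along Gcm2 in every label group, whereas Cry1 scatters between 6.98 and 8.99.

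The gradient fit added 24 higher genes that the split missed, among them Pth and Vdr of the parathyroid identity list. Pth had a slope of 1.03 (SE 0.22, limma adjusted p = 0.0442). Without 18-month replicate 4 that slope was 1.09, at a limma adjusted p of 0.255. Vdr had a slope of 0.35 (SE 0.06, limma adjusted p = 0.00459), and its split difference was 1.24 (SE 0.29, limma adjusted p = 0.0699). Its medians were 10.58 and 9.56, and the sides did not overlap. Chga, chromogranin A, the main granule protein that parathyroid cells share with C cells, had a slope of 0.16 (SE 0.03, limma adjusted p = 0.00206). Its split difference was 0.58 (SE 0.13, limma adjusted p = 0.0566). High-side values were 12.47 to 13.15 (median 12.85) and low-side values 11.83 to 12.65 (median 12.35), with an overlap through homozygous replicates 3 and 6 among others. Prrx2, Pde8b, Itpr1 and Pdgfc were further genes called by the gradient alone.

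Of 13 listed parathyroid identity genes, 6 were tested, and 2 rose by the split (Kl and Gata3) while 4 rose along the gradient (with Vdr and Pth). Over all genes tested 0.466% rose by the split and 0.633% along the gradient. Pax9 (-0.18, SE 0.13) and Casr were called by neither. Tbx1 was not analysed here. The mean of the list, which leaves out Gcm2, lay between 10.32 and 11.05 on the high arrays and between 8.38 and 10.30 on the low ones. The median difference of its 6 tested genes was 1.91, beside -0.02 for all genes. The list was drawn up with the parathyroid signal of these arrays known, so it is not independent evidence of a direction. Of 7 pharyngeal pouch factors, Gata3 and Pax1 rose and 5 were not called, with a median of 0.12. Foxi3 (0.12) and Tbx3 (0.26) were among those 5. Of 15 genes of calcium sensing and mineral hormones, only Kl was called by the split, and the median was -0.03. Slc8a1, the sodium-calcium exchanger, was at -0.64 (SE 0.16, limma adjusted p = 0.0777), Atp2b1, a plasma membrane calcium pump, at -0.40, and Cyp27b1, which makes active vitamin D, at -0.03. Of 14 genes of parathyroid tumours and cell cycle inhibitors, 0 were called. The mutated gene Cdkn1b ranged from 10.65 to 11.25 on the high side and from 10.71 to 11.12 on the low side, a difference of -0.05 (SE 0.07, limma adjusted p = 0.636). The probe set of Cdkn1b does not check the mutation.

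Chga had the highest difference of its list. Of 14 granin and prohormone processing genes 0 were called by the split, 2 lay above 0 (Chga and Cpd), and the median was -0.39. Over all genes tested 46.4% lay above 0. Scg5, the partner protein of the convertase Pcsk2, was at -0.40 (SE 0.10, limma adjusted p = 0.0777), Chgb at -0.43 (limma adjusted p = 0.139) and Scg2 at -1.07 (limma adjusted p = 0.232). The list mean ran from 10.43 to 11.08 on the high arrays and from 10.64 to 12.01 on the low ones, so the sides overlapped. C cell genes lay in the same direction without a call. Of 21 tested 3 were above 0, and the median was -0.52. Snap25, of vesicle fusion, was at -0.68 (SE 0.16, limma adjusted p = 0.0651) and Ncam1 at -0.74 (limma adjusted p = 0.107). Calca differed by -0.06 (SE 0.05, limma adjusted p = 0.444), near the top of the scale on every array, and Ret by -0.05.

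Genes of neighbouring tissue mostly lay above 0 without a call, beside 46.4% of all genes tested above 0. Of 14 thyroid follicular genes 0 were called and 13 lay above 0, with a median of 0.65. The list mean was 10.59 to 10.85 on the high arrays and 7.54 to 10.74 on the low ones, with 18-month replicate 1 lowest. Slc5a5, the iodide transporter, was at 10.54 to 11.28 against 6.96 to 11.19, a difference of 1.50 (SE 0.51, limma adjusted p = 0.141). Tg, thyroglobulin, was between 13.94 and 14.37 on all arrays except 18-month replicate 1 (11.08), and differed by 0.26 (SE 0.38, limma adjusted p = 0.681). Of 17 skeletal muscle genes 0 were called and 17 lay above 0, with a median of 1.22. Their mean ran from 8.29 to 11.09 on the high arrays and from 6.72 to 10.07 on the low ones. Myh4, a fast myosin heavy chain, differed by 2.15 (SE 0.85, limma adjusted p = 0.175). Of 17 endothelial genes 16 lay above 0, with a median of 0.26 and 0 called. With the follicular and muscle means as covariates the split called 0 genes in either direction, while the gradient fit with the same covariates called 64 higher, 43 of them among the 53, and 3 lower. Their part in single genes was not tested further.

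**Figure D4:**
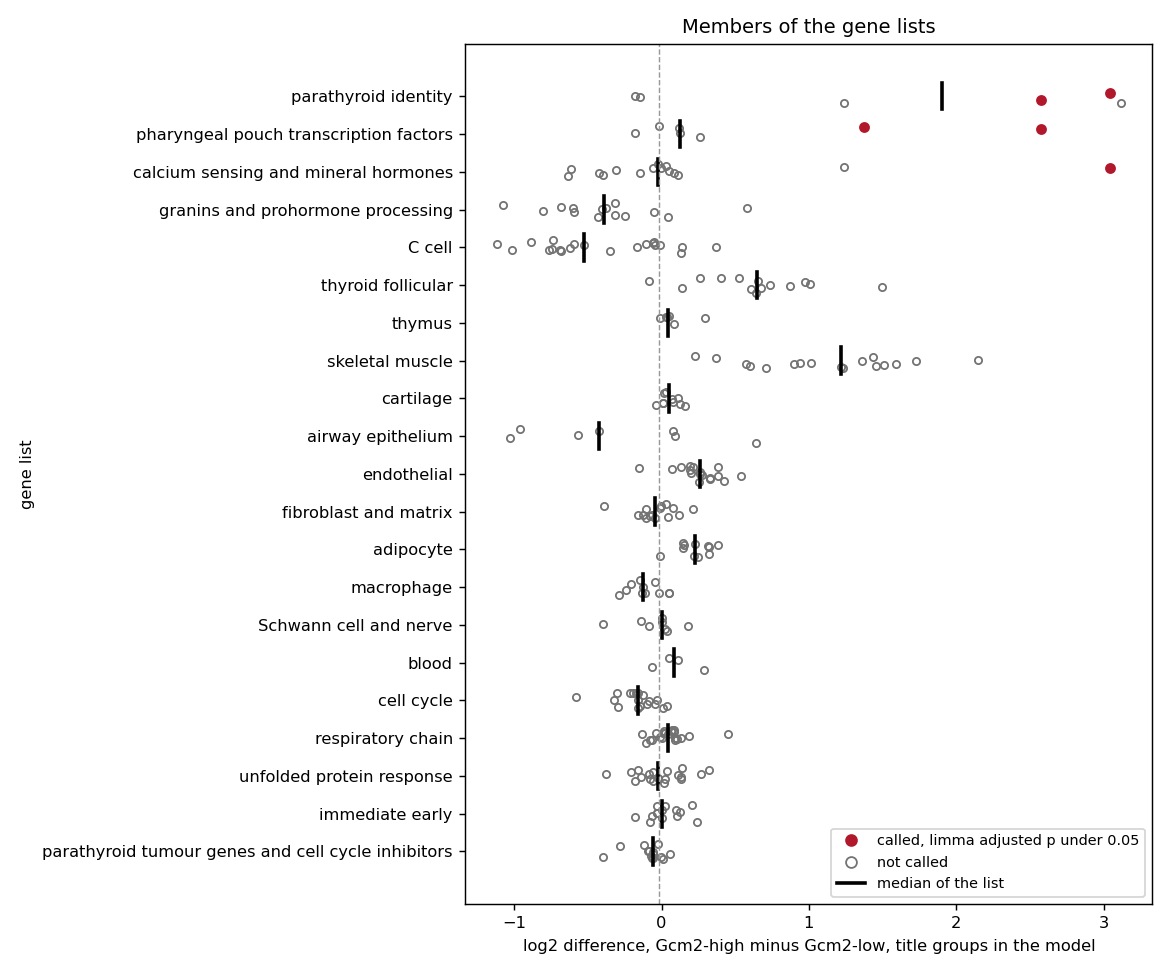
Difference between the Gcm2-high and Gcm2-low sides on the log2 scale (horizontal axis, label groups in the model) for every tested gene of the 21 lists (vertical axis), with filled points for called genes and a bar at each list's median. Called genes lie in the top 3 lists alone, and muscle and follicular genes lie to the right of 0 without a call.

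The remaining lists held no called gene, by the split or by the gradient. Their medians were 0.04 for thymus (6 tested), 0.05 for cartilage (10), -0.42 for airway epithelium (7), -0.04 for fibroblast and matrix (15), 0.23 for adipocyte (11), -0.12 for macrophage (11), 0.00 for Schwann cell and nerve (8) and 0.08 for blood (4). Sftpd, a surfactant protein of airway and lung, was at -1.03 and Dnai1, of cilia, at -0.57, both with a limma adjusted p of 0.137. The respiratory chain (21 tested, median 0.04), the unfolded protein response (19, -0.02) and immediate early genes (14, 0.00) lay near the median of all genes. Members of the respiratory chain ranged from -0.13 for Ndufb8 to 0.45 for Ppargc1a, the coactivator of mitochondrial biogenesis. Over all genes the shares called were 0.466% higher and 0.114% lower by the split, and 0.633% and 0.0176% by the gradient. At such shares 0 calls in lists of 4 to 21 genes says little, here and in the lists above.

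Whether the difference between the sides varied with the label group was tested by an interaction term. Limma called 0 genes for the split (616 at an unadjusted p under 0.05, smallest adjusted p 0.735) and 0 for the gradient (737, 0.731). With lone arrays in 2 of the 3 groups, this does not show that the groups act alike. Chga had slopes of 0.11 in the homozygous, 0.25 in the heterozygous 9-month and 0.14 in the 18-month tumours. Their difference had an unadjusted p of 0.0602 and a limma adjusted p of 0.731.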

How the data were processed

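RNA of 18 medullary thyroid carcinomas was measured on Affymetrix arrays. Per the labels' protocols, extraction used RNeasy Mini columns with DNase, and NuGEN kits served for amplification and biotin labelling. The authors deposited log2 values. The submitters' processing notes name Affymetrix Expression Console (version 1.3.0.187) and RMA, without role or order. Of 29214 probe sets 15310 carried 1 gene symbol, 323 several and 13581 none. Symbols came from GEO's platform annotation, checked by gene ID against RefSeq (15279 found, 0 updated). Of 14506 genes 527 had several probe sets, and the one with the highest mean was used. Genes with a mean at or above the 30th percentile of probe sets (6.32) were tested, which left 11369 without Gcm2. The mean was over all arrays, so a gene under the cut on the low side could pass through the high side. Of 8396 probe sets without a single symbol that passed the same filter, 10 were higher and 0 lower.

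A model with a mean for each label group and a term for the side was estimated over the 18 arrays in limma 3.58.1 (lmFit, then eBayes, under R 4.3.3), with Benjamini-Hochberg adjustment over all genes and two-sided tests. Intervals are 95%. The members, the 21 gene lists (269 of 344 entries tested), the motifs and the rule for naming genes were chosen with earlier results of these data known. Always named were Pth, Casr, Gata3, Chga, Calca, Tg and Cdkn1b (a further item of the rule is not reported here), then the 10 largest rises and falls and the 10 smallest p among called genes, and up to 4 called members of each list, or the 2 of smallest p. Genes of slope-only calls, smaller rises and further list members were named after their values were seen. Pairs of arrays with identical values numbered 0. Residuals of same-numbered arrays correlated between -0.288 and 0.353. Differently numbered arrays were not compared, so a pairing by replicate number was neither shown nor excluded. The main model did not use the numbers. The procedure was tested on simulated data with independent noise for each gene. Genes that move together, as those of one tissue do, were not simulated, so the test does not vouch for the calls. Alternatives were other cutoffs of Gcm2, Pth in its place, Gcm2 as a gradient, no covariate, other filters, probe set means, 2 scalings, other limma settings, tissue means as covariates, the replicate block, and leaving out arrays.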

Additional observations from a re-analysis of the deposited data

Results flagged for a closer look

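Within label groups of 6, single arrays lay far from the other 5 (a gap above the 95% limit of Dixon's test) in 39 of 198 gene and group pairs examined, or 19.7%. Chance gives about 1 in 20 in genes not chosen by their values. Many of these genes were named for their difference between the sides, which leave a lone array in 2 groups, so the share cannot be read against that figure.

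The 18-month replicate 4, the lone high array of its group, was above the other 5 for Cryba2 (13.34), Egf (10.94), Gata3 (10.99), Kl (10.99), Pax1 (9.08), Rapgef5 (10.6), Rasal1 (9.55), Rhcg (11.71), Sostdc1 (11.09), Tnmd (9.06) and Chga (13.15). It was below them for Ankh (10.93), Snap25 (11.59) and Uck2 (8.10). Heterozygous 9-month replicate 1, the lone low array, was below its group for Adgrg2 (5.68), Cryba2 (8.63), Egf (8.27), Kl (7.06), Pcyt1b (6.99), Pth (10.67), Rhcg (7.07), Sostdc1 (7.10), Tnfrsf11b (6.77) and Tpx2 (6.89), and above it for Atf6 (10.6), a sensor of misfolded protein.

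Homozygous replicate 2 was below its group for Pth (8.33) and Atp5f1b (12.33). Homozygous replicate 3 was above its group for Ccne2 (8.62) and Ncam1 (11.14) and below it for Cdh16 (8.56), Cs (11.31) and Pnpla2 (11.07). Homozygous replicate 1 was above its group for the cartilage collagens Col9a1 (7.43) and Col9a2 (7.77) and for Egr2 (6.73), and below it for Ctnnb1 (11.25) and Fn1 (8.13). Tg was lowest on 18-month replicate 1 (11.08), and the haemoglobin gene Hbb was highest on 18-month replicate 6 (13.1).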

How the results depend on the processing

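The 53 higher and 13 lower genes kept their sign in every alternative run in which they were tested. At the 50th percentile filter 35 of the 53 and all 13 were tested. These genes were picked by their difference on the arrays that the alternatives reuse, so a kept sign was largely given. Ranking by Pth gave the same sides, and omitting 18-month replicate 4 gave the same differences as the 9-month arrays alone. The counts of calls moved widely. No gene was called in all alternatives. In either direction 0 genes were called with the 3 highest against the 3 lowest arrays of each label group, with 9-month arrays only, with follicular and muscle means as covariates, and without both lone arrays. Taking 3 against 3 put heterozygous 9-month replicates 2 and 3 low and 18-month replicates 1 and 5 high. Without both lone arrays the split was estimated from the homozygous tumours alone. The 0 calls of these last-named settings therefore say little about the main split. Without the covariate 1741 were higher and 2310 lower. The higher count was 35 with the 50th percentile filter, 34 with array weights, 19 with the split at the widest step (0 lower), and 34 without homozygous replicates 3 and 4 (0 lower). The lower count was 2 with Gcm2 as a gradient, 2 without the arrays at ranks 9 and 10, 5 with no filter, 4 after quantile normalization, 20 with trend and robust settings and 3 with array weights. With the gradient it was 3 with tissue means, and 0 on 9-month arrays or without 18-month replicate 4. Whether replicate numbers pair the samples was not settled, and the replicate block gave 26 higher (23 among the 53) and 4 lower. Leaving out each array gave 5 to 130 higher and 0 to 264 lower. The split at the widest step, the omissions of the lone arrays and of homozygous replicates 3 and 4, and the gradient fits on 9-month arrays, with tissue means and without 18-month replicate 4 were chosen after seeing the data. Pth was called with no covariate (3.52) and with the gradient, whose slope was 1.03, 0.97 on 9-month arrays and 1.26 with tissue means.

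Changes of sign were looked for in the 66 named genes only. Among these, signs of 9 genes that the split did not call turned, at values under 0.1 in size except for Tg. With the gradient Hbb was at -0.00043. With 3 against 3, Foxn1 was at -0.024 and Tg at -0.22. With 9-month arrays only, and again without 18-month replicate 4, Cdkn1b was at 0.043 and Pf4 at 0.016. Over all single omissions they ranged from -0.10 and -0.13 up to those values. With array weights C1qb was at 0.058. With tissue means Egfl7 was at -0.025 and Tg at -0.38. With the replicate block Hbb was at -0.065. At the widest step Foxn1 was at -0.019 and Hbb at -0.075. Without lone arrays C1qb was at 0.062, Cdkn1b at 0.019, Cfd at -0.029 and Foxn1 at -0.022. With the gradient on 9-month arrays Casr was at 0.0051, Cdkn1b at 0.0069, Egfl7 at -0.0030, Foxn1 at -0.0072 and Tg at -0.00105. With the gradient and tissue means Tg was at -0.0975. With the gradient without 18-month replicate 4, Cdkn1b was at 0.0081, Foxn1 at -0.0083 and Tg at -0.054. The cause of these changes was not tested. A fit of 18-month arrays only was not run, since that group had a single Gcm2-high array. Signals near the top of the scale, as for Pth, Calca and Tg, limit what their differences can show.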
